A study of Mus musculus with 21 samples.

Results

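The SR splicing factors are the 10 serine/arginine-rich proteins encoded by Srsf1, Srsf2, Srsf3, Srsf4, Srsf5, Srsf6, Srsf7, Srsf9, Srsf10 and Srsf11, chosen by gene name. All 10 were found among the 16318 genes of the deposited table, and all 10 passed the filter on low counts. The measurements are whole-brain RNA-seq of 21 SAMP8 mice, a senescence-accelerated strain used as a model of sporadic Alzheimer's disease, with 1 library per mouse. The PBS group held 12 mice (6 female, 6 male) injected with the vehicle, phosphate-buffered saline. The HsTX1[R14A] group held 9 mice (3 female, 6 male) injected with HsTX1[R14A], a peptide that blocks the potassium channel Kv1.3, at 1 mg/kg. Both groups were SAMP8 mice dosed subcutaneously on alternate days for 8 weeks, from 4 to 6 months of age, and no mouse of another strain was included. The comparison asks how the brain transcriptome of mice given the peptide differed from that of mice given vehicle.

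SR proteins pair RNA recognition motifs with a tail rich in arginine and serine repeats. They bind enhancer sequences in exons, recruit the spliceosome to nearby splice sites, and follow the mRNA into export, translation and decay. Kinases of the SRPK and CLK families phosphorylate the tail and so set the location and activity of the proteins, and most family members limit their own level by splicing in a poison exon that sends the transcript to nonsense-mediated decay. In neurons these proteins act with tissue-restricted regulators on the splicing of synaptic genes and of tau.

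The genes lie on 7 autosomes of the mouse genome GRCm38, with Srsf3 and Srsf7, Srsf4 and Srsf10, and Srsf1 and Srsf2 each sharing a chromosome. Srsf3 is at chr17:29032628-29043373 (plus strand) and Srsf7 at chr17:80200080-80207307 (minus strand). Srsf4 is at chr4:131873617-131901706 and Srsf10 at chr4:135855747-135869908, both on the plus strand. The other six are Srsf1 at chr11:88047373-88053755 (plus), Srsf2 at chr11:116849901-116853094 (minus), Srsf5 at chr12:80945504-80950507 (plus), Srsf6 at chr2:162931528-162937121 (plus), Srsf9 at chr5:115327177-115333080 (plus) and Srsf11 at chr3:158010473-158036639 (minus). In the GENCODE annotation all but Srsf10 carry at least 1 transcript marked for nonsense-mediated decay, and all but Srsf9 and Srsf10 carry at least 1 retained-intron transcript. Srsf11 has the most annotated transcripts, 19, of which 11 are retained-intron forms. The deposited value of a gene is summed over its transcripts, so productive and poison forms of these mRNAs cannot be told apart here. Exons of Srsf2 overlap those of Mettl23 (460 bases) and Mfsd11 (288 bases) on the opposite strand, and exons of Srsf4 overlap the noncoding Gm12992 on the opposite strand over 1532 bases. The strand setting of the authors' counting is not given in the sources used here, so reads from these partners may be shared.

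Promoters from RefSeq (GRCm38.p6), 250 bases before to 50 bases after the RefSeq start, matched all 10 genes. Those of Srsf3, Srsf7 and Srsf4 are shown because the mRNAs of Srsf3 and Srsf7 rose and fell together from mouse to mouse while that of Srsf4 moved the opposite way. In PBS mice these mRNAs also followed a property of the libraries, the length slope described below. A part of the promoters in these levels was not tested. They are given 5′ to 3′ on the strand of the gene, with Srsf3 at chr17:29032410-29032709 (plus), Srsf7 at chr17:80207256-80207555 (minus) and Srsf4 at chr4:131873387-131873686 (plus). Capitals mark every match, on either strand, to 7 sets of letters searched: the TATA box in its forms TATAAA and TATATA, the box CCAAT, the GC box GGGCGG, the ETS site ACTTCCGG, the core TGACGT of the cyclic AMP response element (CRE) and the NRF1 core GCATGCGC.

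Srsf3: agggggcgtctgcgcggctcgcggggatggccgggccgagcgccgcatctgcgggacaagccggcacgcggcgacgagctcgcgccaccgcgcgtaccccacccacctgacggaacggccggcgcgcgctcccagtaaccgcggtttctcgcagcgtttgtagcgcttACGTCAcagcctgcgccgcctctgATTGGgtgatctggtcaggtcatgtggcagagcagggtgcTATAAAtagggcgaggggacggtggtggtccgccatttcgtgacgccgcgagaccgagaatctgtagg
Srsf7: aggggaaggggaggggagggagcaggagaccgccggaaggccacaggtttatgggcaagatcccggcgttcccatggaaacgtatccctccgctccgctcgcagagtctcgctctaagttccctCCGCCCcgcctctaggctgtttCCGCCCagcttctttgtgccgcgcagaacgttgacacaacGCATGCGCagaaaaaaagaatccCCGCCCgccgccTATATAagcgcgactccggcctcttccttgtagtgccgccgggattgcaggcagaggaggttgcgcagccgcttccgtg
Srsf4: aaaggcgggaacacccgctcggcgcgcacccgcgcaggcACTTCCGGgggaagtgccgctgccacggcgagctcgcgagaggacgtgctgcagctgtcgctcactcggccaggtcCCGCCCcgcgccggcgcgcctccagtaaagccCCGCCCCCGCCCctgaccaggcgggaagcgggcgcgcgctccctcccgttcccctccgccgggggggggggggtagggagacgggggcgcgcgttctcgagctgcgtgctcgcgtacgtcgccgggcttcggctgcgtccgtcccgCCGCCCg

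Srsf3 held TATAAA 18 bases before its start, as did Srsf2 at 29 bases, and Srsf7 alone held TATATA, also 29 bases before its start. The other 7 members held neither form. Of 27025 mouse promoters of this length, 14.2% held TATAAA and 5.94% held TATATA. Srsf4, among those 7, held an ETS site, as did Srsf5 with 2 matches and 4% of all promoters, and 4 GC boxes, of which 2 are adjacent. The Srsf4 window was also the most GC-rich of the 10, at 77.7%, with 49 CpG dinucleotides, against medians of 52.7% and 7 over all promoters. A GC box was found in 9 of the 10 family promoters (all but Srsf3), against 35.9% of all promoters. All 10 windows lay above those medians, at 56% to 77.7% GC and 20 to 49 CpG dinucleotides. Promoters of like GC content were not compared, so the count of 9 is not shown to be particular to the family. The CRE core was found in Srsf3, Srsf6 and Srsf11, against 7.64% of all promoters, and the NRF1 core in Srsf7, against 2.80%. The box CCAAT was found in 4 of 10 members (Srsf1, Srsf2, Srsf3 and Srsf10), close to its share of 37.9% over all promoters. These are matches of letters, not measured binding sites. Distances are from the RefSeq starts, some of which differ from the GENCODE starts given above. The TATAAA of Srsf3 lies after its GENCODE start. The Srsf10 window, chr4:135855821-135856120, lies wholly inside the gene as GENCODE places it, from 135855747.

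Library totals ran from 14917174 to 47613792 estimated counts, and each member had 225 to 8705 counts in every mouse, so sampling of reads was small beside the spread between mice for all but Srsf9, the member with the fewest counts. Levels are given as CPM, counts relative to library size, after scaling by the trimmed mean of M values (TMM). Libraries differed in how their counts depended on transcript length and on GC content. The length slope is the change in a gene's log2 CPM relative to its mean over all mice per doubling of transcript length. It ran from -0.38 to 0.15 in PBS mice and from -0.14 to 0.23 in HsTX1[R14A] mice. The GC slope is the same change per 10 percentage points of transcript GC content. It ran from -0.31 to 0.15 in PBS mice and from -0.14 to 0.20 in HsTX1[R14A] mice. Mitochondrially encoded mRNAs took 9.33% to 20.2% of counts in PBS mice and 7.13% to 13.5% in HsTX1[R14A] mice. Library names in the table begin in either of 2 forms, whose meaning is not stated, the more common covering 10 PBS and 5 HsTX1[R14A] mice and the less common 2 PBS and 4 HsTX1[R14A] mice.

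Of the 10 SR factors, only Srsf4 passed the test for treatment, and it was higher in mice given HsTX1[R14A]. Its mean level was 43.0 ± 6.35 CPM in the 12 PBS mice (SD) and 50.3 ± 5.13 CPM in the 9 mice given HsTX1[R14A]. The other 9 members were lower on average, with log2 fold changes from -0.21 to -0.01, and none of these passed. In the same fit 5144 of 16303 genes passed (31.6%; edgeR quasi-likelihood test, sex in the model, Benjamini-Hochberg adjusted p of at most 0.05), 15.5% of all genes tested being called higher and 16.1% called lower. A count of 1 in 10 is therefore not above the background of these libraries. The median log2 fold change of the members was -0.09, against -0.01 over all genes tested. Summed over the 10 genes, the level was 1056 ± 58.2 CPM on PBS and 993 ± 86.5 CPM on HsTX1[R14A]. In bulk tissue a lower share of a cell type and less mRNA per cell cannot be told apart.

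**Figure D1:**
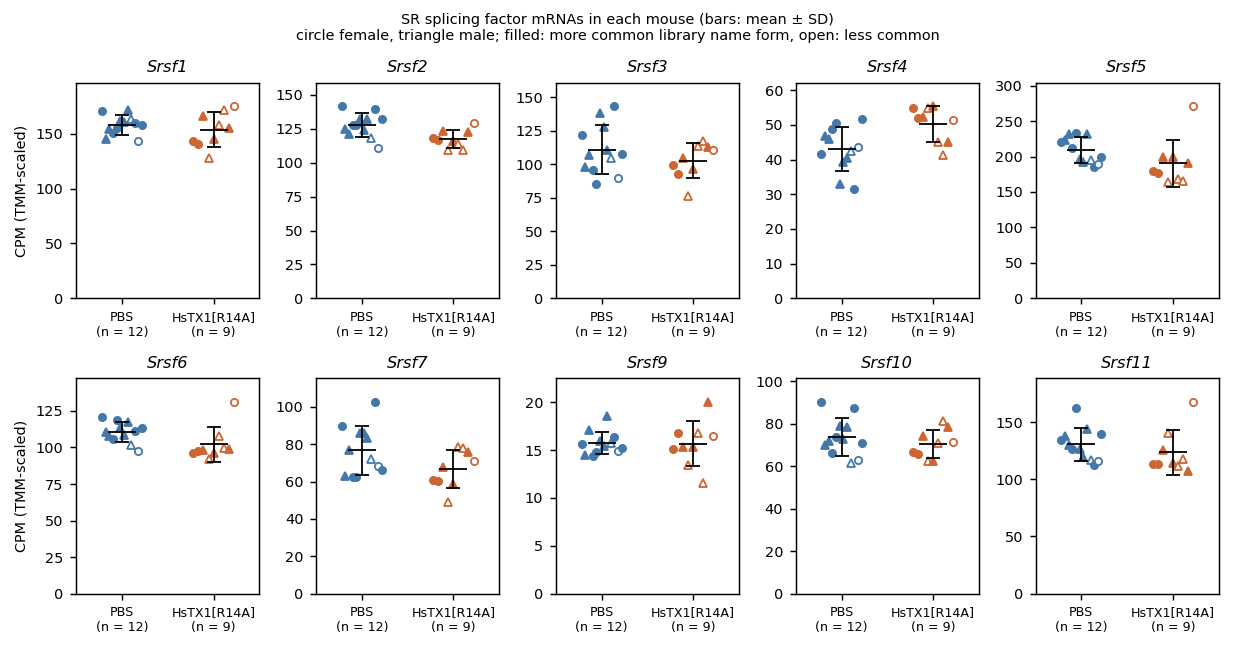
Level of each SR splicing factor mRNA in every mouse (CPM after TMM scaling, y axis from 0) by treatment (x axis, 12 PBS and 9 HsTX1[R14A] mice), with the mean and SD as bars, circles for females, triangles for males, and open symbols for the less common library name form. The treatment groups overlapped for all 10 genes, and the female HsTX1[R14A] mouse 98 stood above every other mouse for Srsf5, Srsf6 and Srsf11.

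Srsf4 encodes a family member with a long arginine/serine tail. In PBS mice its level was 31.6 CPM at the lowest, 43.1 at the median and 51.8 at the highest, and in HsTX1[R14A] mice it was 41.4, 52.0 and 55.4 CPM. For the other members a range is given from the lowest mouse through the median to the highest. The groups overlapped, but 5 of 9 HsTX1[R14A] mice lay above every PBS mouse and 4 of 12 PBS mice lay below every HsTX1[R14A] mouse. The log2 fold change was 0.24 (SE 0.08, adjusted p = 0.0352, edgeR). The call was lost when any of 9 mice was left out, with adjusted p of 0.0536, 0.0647 and 0.0537 without PBS males 101, 90 and 91, of 0.0544, 0.0643 and 0.0545 without HsTX1[R14A] females 98, 71 and 72, and of 0.0585, 0.0649 and 0.0638 without HsTX1[R14A] males 74, 88 and 81. With the length slope as a further model term, the log2 fold change was 0.03 (SE 0.06, adjusted p = 0.896).

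Srsf3, the smallest family member, and Srsf7, which carries a zinc knuckle, both serve as adaptors of mRNA export. In PBS mice Srsf7 ran from 62.2 CPM through a median of 74.5 to 103 CPM, and in HsTX1[R14A] mice from 49.2 through 68.0 to 78.5 CPM. Srsf7 thus had the most negative fold change of the family, and 5 PBS mice lay above the highest HsTX1[R14A] mouse while 4 HsTX1[R14A] mice lay below the lowest PBS mouse. The difference did not pass, at a log2 fold change of -0.21 (SE 0.10, adjusted p = 0.115). Srsf3 ran from 85.6 CPM through 107 to 143 CPM with PBS and from 76.3 through 105 to 117 CPM with HsTX1[R14A]. The ranges overlapped, with 4 PBS mice above the highest HsTX1[R14A] mouse and 1 HsTX1[R14A] mouse below the lowest PBS mouse. The log2 fold change of Srsf3 was -0.12 (SE 0.10, adjusted p = 0.332).

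Srsf1, the founding SR protein, which acts in splice site choice, decay and translation, ran from 143 CPM through 159 to 172 CPM in PBS mice. In HsTX1[R14A] mice it ran from 128 CPM through 155 to 175 CPM, a wider range that enclosed the whole PBS range. Its log2 fold change was -0.04 (SE 0.06, adjusted p = 0.602). Srsf10, which turns into a general repressor of splicing when it loses its phosphates in heat shock, ran from 61.7 CPM through 72.3 to 90.5 CPM with PBS and from 62.4 through 71.1 to 81.5 CPM with HsTX1[R14A]. Every HsTX1[R14A] value of Srsf10 fell inside the PBS range, and the log2 fold change was -0.06 (SE 0.07, adjusted p = 0.509).

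Srsf5, Srsf6 and Srsf11 shared a feature of the HsTX1[R14A] group: the female mouse 98 carried the highest value of all 21 mice for each, as it did for Srsf1. Srsf5 ran from 185 CPM through 206 to 233 CPM with PBS and from 165 through 179 to 271 CPM with HsTX1[R14A]. Without mouse 98 the highest HsTX1[R14A] value of Srsf5 was 199 CPM, and 5 of the 9 HsTX1[R14A] mice lay below every PBS mouse. Srsf6, which binds tau pre-mRNA among other targets, ran from 97.7 CPM through 111 to 121 CPM with PBS and from 92.0 through 98.2 to 131 CPM with HsTX1[R14A]. Here 8 of 9 HsTX1[R14A] mice lay below the PBS median. Srsf11, which takes part in the inclusion of neuronal microexons, ran from 112 CPM through 128 to 162 CPM with PBS and from 107 through 114 to 168 CPM with HsTX1[R14A]. With all mice none of these passed, at log2 fold changes of -0.13 for Srsf5 (SE 0.08, adjusted p = 0.222), -0.11 for Srsf6 (SE 0.06, adjusted p = 0.168) and -0.07 for Srsf11 (SE 0.08, adjusted p = 0.521).

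Leaving out mouse 98 changed which members passed. Srsf5 was then called lower in HsTX1[R14A] mice (log2 fold change -0.23, SE 0.07, adjusted p = 0.0362), as was Srsf6 (-0.18, SE 0.05, adjusted p = 0.0389), and Srsf11 did not pass (-0.16, SE 0.07, adjusted p = 0.118). Srsf4 lost its call in the same fit, and the count of genes called fell to 3005 of 16305 (18.4%). Mouse 98 had 24465565 counts, 7.13% of them from mitochondrially encoded mRNAs, and the highest length slope of all mice, 0.23, and its library name has the less common form. The part of these features in its levels was not tested.

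Srsf2, which helps define exons and stays in the nucleus more than other members do, ran from 111 CPM through 128 to 142 CPM with PBS and from 109 through 117 to 129 CPM with HsTX1[R14A]. It lay below the median PBS mouse in 8 of 9 mice given HsTX1[R14A]. The log2 fold change was -0.11 (SE 0.05), with an unadjusted p of 0.043 that did not pass adjustment over all genes (adjusted p = 0.0969, edgeR). Srsf9, the least abundant member, ran from 14.4 CPM through 15.6 to 18.5 CPM with PBS and from 11.6 through 15.4 to 20.1 CPM with HsTX1[R14A]. The lowest and the highest mouse were both in the HsTX1[R14A] group, and the log2 fold change of Srsf9 was -0.01 (SE 0.08, adjusted p = 0.939).

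**Figure D2:**
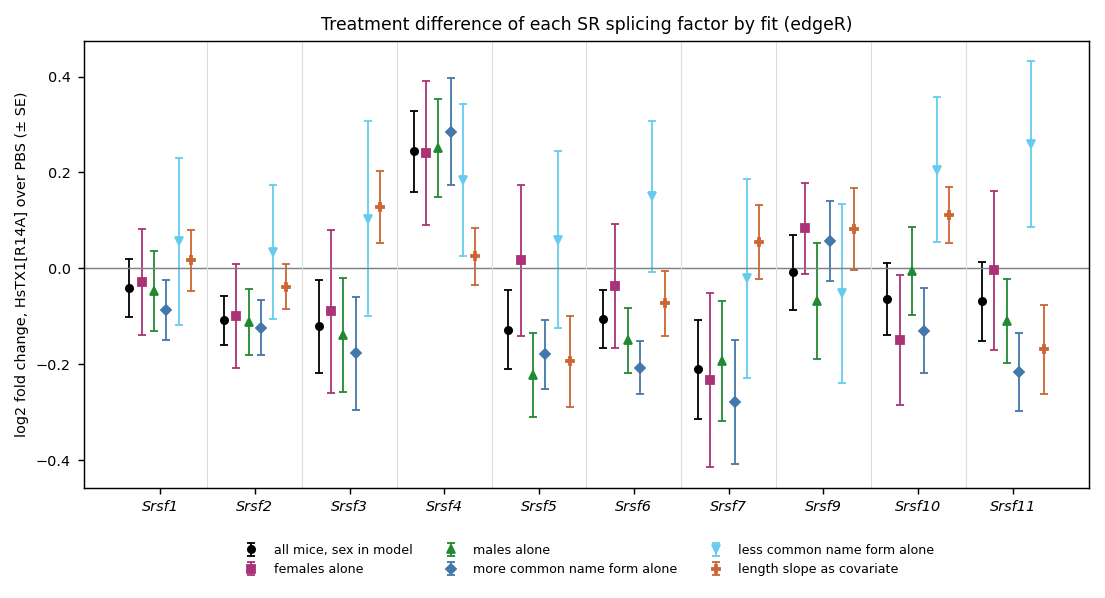
Log2 fold change between treatments, HsTX1[R14A] relative to PBS (y axis, points with SE bars) for each SR splicing factor (x axis) in 6 fits: all 21 mice with sex in the model, females alone, males alone, each library name form alone, and all mice with each library's length slope added. Srsf4 stayed above 0 in all 6 fits but only by 0.03 with the length slope added, where Srsf1, Srsf3, Srsf7, Srsf9 and Srsf10 lay above 0 as well.

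No member passed the test for sex. In all, 9 genes passed it (0.0552% of 16303, with 0.0245% higher and 0.0307% lower in females), and the members' log2 differences, female over male, ran from -0.07 to 0.11 with a lowest unadjusted p of 0.206. The treatment difference was not shown to differ between the sexes for any gene tested by edgeR (0%, with 270 of 16303 genes at an unadjusted p under 0.05, and 0 by limma/voom and by DESeq2), and the members' unadjusted p for this term ran from 0.154 to 0.972.

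Within a sex the direction of Srsf4 was shared. The 3 HsTX1[R14A] females had 51.4, 52.0 and 54.9 CPM of Srsf4 against 31.6 to 51.8 CPM in 6 PBS females. Males ran from 41.4 to 55.4 CPM on HsTX1[R14A] and from 33.0 to 46.8 CPM on PBS. The log2 fold change of Srsf4 was 0.24 in females (SE 0.15) and 0.25 in males (SE 0.10), and in neither sex alone did it pass adjustment (adjusted p = 0.325 and 0.152, edgeR). Srsf5 fell on different sides of 0, at 0.02 in females (SE 0.16) and -0.22 in males (SE 0.09). The female values of Srsf5 were 177, 179 and 271 CPM, the last from mouse 98, and without that mouse the female log2 fold change was -0.21 (adjusted p = 0.442). Srsf6 was at -0.04 in females (SE 0.13) and -0.15 in males (SE 0.07). In males Srsf4, Srsf5 and Srsf6 had unadjusted p of 0.0282, 0.0245 and 0.0454, and none passed adjustment. Fitted alone, neither sex had a gene called by edgeR (0% of 16209 in females, with 3312 at an unadjusted p under 0.05, and 0% of 16102 in males, with 4440). DESeq2 called 144 genes in females and 692 in males, no member among them.

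The direction of most members also depended on which libraries were fitted and on the model terms. Among mice of the more common name form alone, 8 of 10 members were lower on HsTX1[R14A], with a median log2 fold change of -0.15, and Srsf6 had the smallest p (-0.21, SE 0.06, adjusted p = 0.0602). Among the 6 mice of the less common form, 8 of 10 were higher, with a median of 0.08 and SE from 0.14 to 0.21. That form held 1 female per treatment, HsTX1[R14A] mouse 98 and PBS mouse 104. Its 3 HsTX1[R14A] males lay below its 1 PBS male for Srsf5 (165, 168 and 166 against 195 CPM). They lay above that male for Srsf10 (62.7, 71.1 and 81.5 against 61.7 CPM). The part of mouse 98 in these directions was not tested. Neither subset had a called gene (edgeR, 5797 genes at an unadjusted p under 0.05 in the more common form and 532 in the less common form). With the length slope in the model, 6 of 10 members were higher and the median was 0.02. No gene passed in that fit, where 1865 genes had an unadjusted p under 0.05. The slope averaged -0.08 in PBS and 0.10 in HsTX1[R14A] libraries, so treatment and slope cannot be told apart by these values.

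In the 12 PBS mice, where treatment plays no part, 4 members followed the length slope of the library. The slope is itself fitted over all tested genes of known length, and the share of all genes that follow it was not computed. The count of 4 is therefore not shown to set these members apart from other genes. The level of Srsf4 rose with the slope (r = 0.90, permutation p = 0.00022, adjusted over the 10 members 0.00073, rho = 0.78). Levels fell with the slope for Srsf3 (r = -0.89, permutation p = 0.00014, adjusted 0.0007), Srsf7 (r = -0.87, p = 0.00013, adjusted 0.0007) and Srsf10 (r = -0.74, p = 0.00643, adjusted 0.0161), with rho of -0.91, -0.85 and -0.74. Leaving out the 2 mice whose slope lay farthest from the median gave r of 0.68, -0.76, -0.83 and -0.68 in that order, and only Srsf7 still passed adjustment. In the 10 PBS mice of the more common name form all 4 passed, with r of 0.93, -0.89, -0.87 and -0.76. Srsf5 and Srsf11 were the only other members with a positive r, 0.32 and 0.28, and neither passed. The longest transcript of Srsf4 had 53% GC, the highest of the 10, against 40.1% to 49.97% in the others, and at 3100 bases was shorter than those of 6 other members. It is a retained-intron form, as are the longest transcripts of Srsf3 and Srsf5, and that of Srsf9 is marked for nonsense-mediated decay. The longest protein-coding transcript of Srsf4 has 2257 bases.

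**Figure D3:**
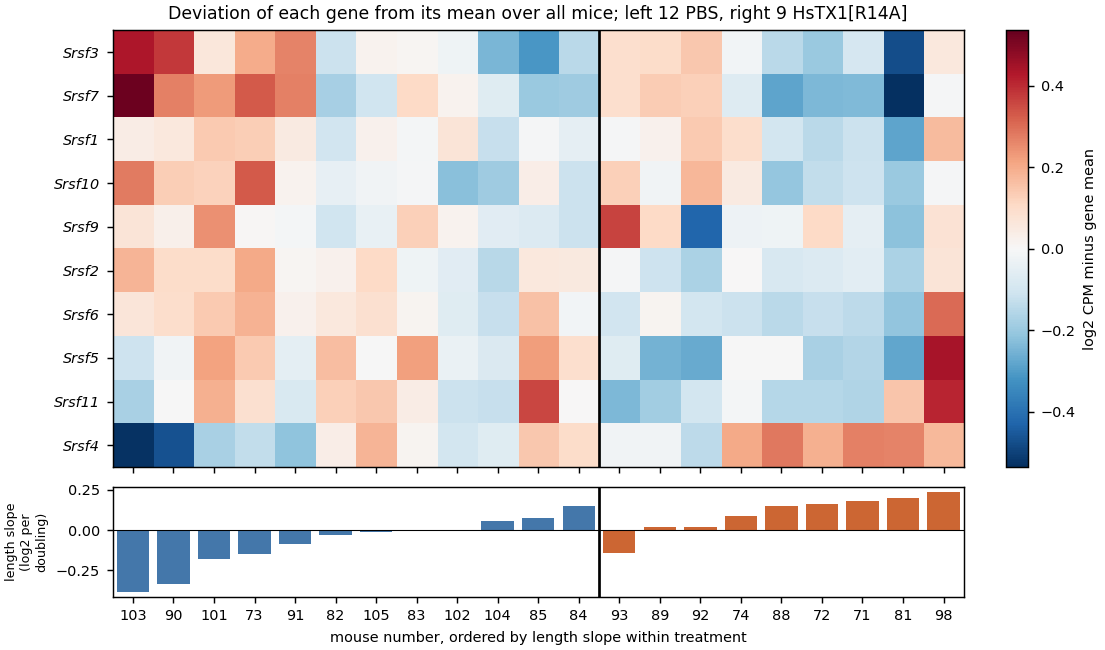
Upper panel: log2 CPM of each SR splicing factor minus its mean over all 21 mice (colour, red higher, blue lower) in each mouse, with 12 PBS mice left of the line and 9 HsTX1[R14A] mice right of it, ordered by length slope within each group. Lower panel: length slopes of the libraries (log2 CPM per doubling of transcript length). Srsf3 and Srsf7 are red and Srsf4 blue in the PBS mice with the lowest slopes, 103 and 90, and mouse 98 at the far right is red for Srsf5, Srsf6 and Srsf11.

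Members were also compared with each other across mice. Over the 45 pairs of members, 33 were positively correlated in PBS mice and 36 in HsTX1[R14A] mice. By Pearson r, 8 pairs passed adjustment in each group. By rank correlation (rho), only Srsf3 and Srsf7 passed in HsTX1[R14A] mice (exact permutation, adjusted p = 0.00744). Every other pair there, Srsf4 and Srsf7 included, was at 0.0566 or above. Pairs of other genes were not tested in this way. These counts therefore do not show that the members are linked more closely than other genes of these libraries. Srsf3 and Srsf7 were the most tightly linked pair in both groups, at r = 0.90 in the 12 PBS mice (permutation p = 3e-05, adjusted 0.00135, rho = 0.90) and r = 0.97 in the 9 HsTX1[R14A] mice (exact permutation p = 4.13e-05, adjusted 0.00186, rho = 0.97). Without the 2 mice farthest from the median Srsf3 level, r was 0.85 and 0.98. Srsf4 ran against Srsf7 in both groups, at r = -0.87 in PBS mice (permutation p = 0.00015, adjusted 0.003375, rho = -0.90) and r = -0.83 in HsTX1[R14A] mice (exact permutation p = 0.0053, adjusted 0.0298, rho = -0.83). Without the 2 farthest mice these were -0.83 and -0.80, and in PBS mice of the more common name form -0.89. The mice with the lowest Srsf4, PBS female 103 at 31.6 CPM and PBS male 90 at 33.0 CPM, had 103 and 86.2 CPM of Srsf7, above the PBS median of 74.5, and the highest Srsf3 of all mice, 143 and 138 CPM. These were also the libraries with the lowest length slopes, -0.38 and -0.34, and Srsf3, Srsf4 and Srsf7 all followed that slope in PBS mice, as given above. The part of the slope in these correlations was not tested.

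Srsf5 was tied to Srsf11 in PBS mice, where r was 0.81 (permutation p = 0.00137, adjusted 0.0103, rho = 0.87), and it was 0.85 without the 2 farthest mice and 0.76 in the more common name form. In HsTX1[R14A] mice r was 0.65 and did not pass (exact permutation p = 0.0815, adjusted 0.245, rho = 0.13), and it was -0.24 without the 2 farthest mice, mouse 98 being the farthest. Srsf2 was tied to Srsf10 (r = 0.88, permutation p = 0.00024, adjusted 0.0036, rho = 0.80) and to Srsf6 (r = 0.83, permutation p = 0.00095, adjusted 0.00855, rho = 0.82) in PBS mice, and Srsf6 to Srsf10 (r = 0.79, permutation p = 0.00235, adjusted 0.0151, rho = 0.83). Without the 2 farthest mice these were 0.82, 0.62 and 0.65. In HsTX1[R14A] mice none of these 3 pairs passed, at r of 0.18, 0.63 and 0.26. There Srsf5 passed with Srsf2 by r (r = 0.87, exact permutation p = 0.00084, adjusted 0.0189), at 0.77 without the 2 farthest mice, against r = 0.14 in PBS mice. That pair did not pass by rho (rho = 0.82, adjusted 0.0566). Srsf1 with Srsf3 and with Srsf7, and Srsf10 with Srsf3 and with Srsf4, also passed by r there and not in PBS mice (adjusted 0.0224 to 0.0298). Srsf3 with Srsf4 passed by r in PBS mice (adjusted 0.00562) and not in HsTX1[R14A] mice (0.0953). Srsf7 with Srsf10 passed by r in both groups. The differences between the groups were not tested.

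**Figure D4:**
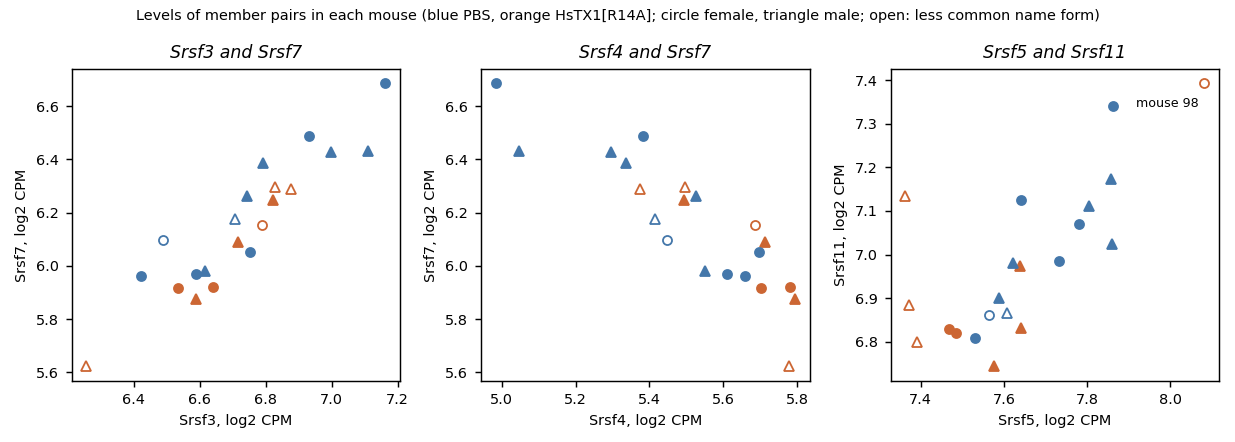
Log2 CPM of 3 pairs of SR splicing factors in each of 21 mice (blue PBS, orange HsTX1[R14A], circles females, triangles males, open symbols the less common library name form). Srsf7 rose with Srsf3 and fell with Srsf4 in both treatment groups, and mouse 98 lies far to the upper right for Srsf5 and Srsf11.

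Set against transcript length, Srsf5 had the highest mean level of the members and Srsf9 the lowest. Per kilobase of the longest protein-coding transcript, PBS mice had 133 ± 11.7 CPM of Srsf5 and 67.2 ± 4.601 CPM of Srsf2 (SD, n = 12). Next came Srsf3 at 42.3 ± 7.04 and Srsf11 at 42.0 ± 4.59, which did not differ beyond their spread. Srsf7, Srsf6 and Srsf1 followed at 31.9, 31.3 and 29.4 CPM per kilobase, each within the spread of its neighbour. Then came Srsf10 at 19.7 and Srsf4 at 19.04, also alike within their spread, and Srsf9 at 13.5. In HsTX1[R14A] mice Srsf5 (121 ± 21.1), Srsf2 (61.9 ± 3.43) and Srsf9 (13.5 ± 2.04) kept these places, while Srsf7, at 27.8, stood below Srsf6 and Srsf1, and Srsf4, at 22.3, stood above Srsf10 at 18.8, and Srsf11, at 39.7, above Srsf3 at 39.2. Those exchanges were between neighbours whose ranges overlapped. Divided by all exons of the gene together, Srsf5 and Srsf2 still led, at 52.5 and 43.2 CPM per kilobase in PBS mice. Srsf9 stayed last by its mean of 9.51, within the spread of Srsf10 at 10.5. Srsf3 dropped to rank 7 at 14.03, since its exons span 7899 bases together and its longest coding transcript 2618. By this length Srsf9 and Srsf10 overlapped in HsTX1[R14A] mice too, as did Srsf5 (47.7 ± 8.3) and Srsf2 (39.8 ± 2.2).

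**Figure D5:**
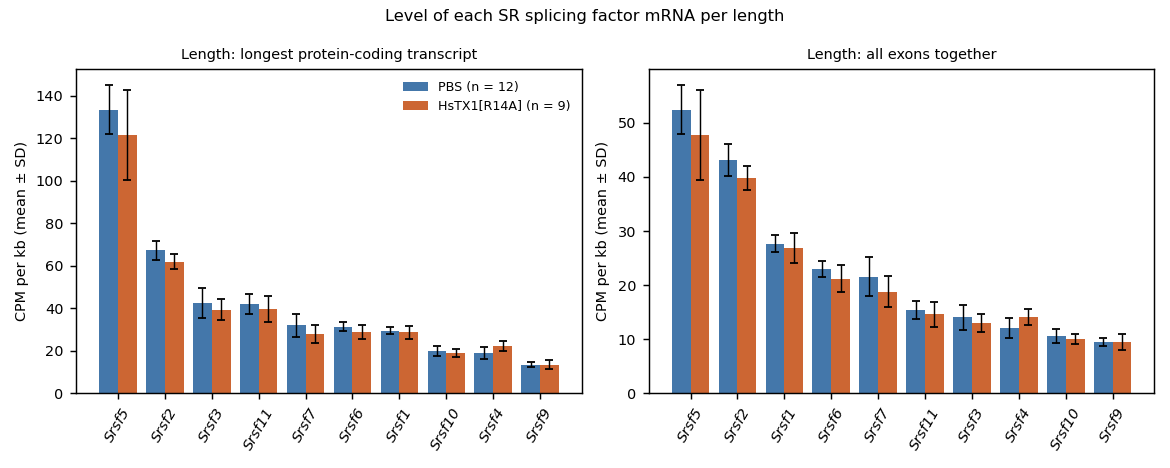
Mean CPM per kilobase (bars from 0, with SD) of each SR splicing factor in 12 PBS and 9 HsTX1[R14A] mice, by the longest protein-coding transcript (left) and by all exons together (right), ordered by the PBS level. By mean, Srsf5 and Srsf2 lead by either length and Srsf9 is last, though by all exons Srsf9 and Srsf10 overlap within their SD.

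Genes that work with the SR factors moved in both directions. Among 28 other SR and SR-like proteins, 18 were higher and 10 lower, 9 passing higher and 2 lower, at a median log2 fold change of 0.18. Scaf8, which binds the tail of RNA polymerase II, was at 0.41 (37.6 ± 7.17 CPM in PBS and 49.3 ± 6.69 in HsTX1[R14A] mice, adjusted p = 0.0179), and Acin1, a partner of the exon junction complex, at 0.45 (81.8 ± 18.2 and 108 ± 23.9 CPM, adjusted p = 0.0208). Of 17 SR protein kinases, phosphatase subunits and the importer Tnpo3, 3 passed higher and 2 lower (median 0.04). No gene of the SRPK or CLK families was among those that passed. Cdk12, a kinase of the polymerase tail, was at 0.56 (adjusted p = 0.0163), and Ppp1cb, a catalytic subunit of protein phosphatase 1, at -0.30 (adjusted p = 0.0279). The hnRNP proteins, which often oppose SR proteins at exons, gave 2 higher and 2 lower calls among 25 (median 0.01), with Hnrnpdl at -0.26 (adjusted p = 0.0183) and Hnrnpul2 at 0.37 (adjusted p = 0.0194).

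Of 21 tissue-restricted splicing regulators, 3 passed higher and 1 lower (median -0.01). Nova2, a neuronal regulator, was at 1.08 (44.5 ± 24.9 and 88.0 ± 35.4 CPM, adjusted p = 0.0229), and Mbnl1 at -0.34 (adjusted p = 0.0172). The spliceosome core had calls in both directions, 11 higher and 15 lower among 44 (median -0.19), with the Sm protein gene Snrpd1 at -0.56 (adjusted p = 0.0151) and the U2 snRNP gene Sf3a1 at 0.56 (adjusted p = 0.0156). Their longest transcripts measure 858 and 4920 bases. The exon junction complex and nonsense-mediated decay list, the route of the poison transcripts, had 6 higher and 1 lower among 15 (median 0.18), with Casc3 at 0.44 (adjusted p = 0.0181). The mRNA export list, partners of Srsf3 and Srsf7, had 1 higher and 4 lower among 13 (median -0.12), led by Thoc7 at -0.56 (adjusted p = 0.0151) and Sarnp at -0.46 (adjusted p = 0.0195). All of these are edgeR values from the fit in which 15.5% of genes passed higher and 16.1% lower, and none of these lists was tested as a set.

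Markers of brain cells were present, and their calls are to be read against the 31.6% of all genes called for treatment (15.5% higher, 16.1% lower). Summed markers ran from 3614 to 5982 CPM in PBS and from 3787 to 6220 CPM in HsTX1[R14A] mice for neurons (1 of 5 called, higher), from 1502 to 2298 and from 1394 to 1940 for astrocytes (3 of 5 called, lower), and from 3460 to 4965 and from 2502 to 3893 for oligodendrocytes (2 of 5 called, lower). For microglia they ran from 257 to 350 and from 220 to 309 (1 of 5 called, lower), and for endothelium from 51.1 to 103 and from 64.7 to 119 (1 of 5 called, higher). Choroid plexus markers ran from 67.3 to 1119 and from 57.6 to 826, and red blood cell genes from 5.82 to 157 and from 15.1 to 87.6, with none of 5 called in either. Liver markers summed to at most 24.1 CPM, with 1 of 3 called lower, and the 2 heart markers analysed to at most 6.88 CPM. The part of cell makeup in the levels of the SR factors was not tested.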

How the data were processed

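Whole-brain RNA of 21 mice was sequenced by the authors, who aligned reads to GRCm38 with STAR and quantified genes with Salmon. The deposited values used here are estimated counts per gene, not normalized; the filter that left 16318 genes is not given in the sources used here. The same table holds 53 further per-sample columns (37 of CPM, 16 of counts) and the authors' log2 fold changes, p-values and FDR, which were not used. The labels and the study name different library kits.

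Counts were rounded (90.5% lay within 0.01 of a whole number), filtered with filterByExpr (16303 genes), TMM-scaled and tested in R 4.3.3 with edgeR 4.0.16 (quasi-likelihood F-test, terms for sex and treatment), with Benjamini-Hochberg adjustment over all genes tested and an FDR threshold of 0.05. Log2 CPM carry a prior count of 2. Correlations were permuted 100000 times, or exactly for 9 mice, two-sided. Alternatives were limma/voom (3.58.1), DESeq2 (1.42.0), RLE scaling, other filters and covariates, subsets by name form, and fits leaving out each mouse in turn. The scripts were tested on simulated data. The mean chi-square per gene between mice of 1 group was at least 7.58, more than sampling noise gives.

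The members and gene lists were chosen with earlier results of these data known. All members are named, and of every other list the 2 genes with the smallest p. A gene that this rule selects is left out of the text. Mbnl3 and Actc1 were not analysed here. Transcript lengths came from GENCODE for GRCm38 and promoters from RefSeq. Each sample is a separate mouse by its number in the labels.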

Additional observations from a re-analysis of the deposited data

Results flagged for a closer look

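Srsf5 in the HsTX1[R14A] group had 1 mouse far from the others. Female mouse 98 had 271 CPM of Srsf5, while the other 8 HsTX1[R14A] mice ran from 165 to 199 CPM. The same mouse had 131 CPM of Srsf6, while the others ran from 92.0 to 108 CPM. The gap to the next mouse divided by the group's whole range was 0.673 for Srsf5 and 0.606 for Srsf6. Of 40 groups of values compared in this way, these were the only 2 that stood apart, and chance alone marks about 1 group in 20. The values of Srsf5 and Srsf6 with and without mouse 98 are given above, and the cause was not tested.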

How the results depend on the processing

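The call of Srsf4 was kept under limma/voom, DESeq2, RLE scaling, both other filters on low counts and, chosen after seeing the data, without mitochondrially encoded genes (log2 fold change 0.24 to 0.25, adjusted p 0.0161 to 0.0353). The count of members called for treatment became 0 with the name form, the length slope or the GC slope (the last chosen after seeing the data) as covariate, without the sex term, and in each name form alone, where the log2 fold change of Srsf4 was 0.26, 0.03, 0.04, 0.23, 0.29 and 0.18 (adjusted p = 0.0554, 0.896, 0.879, 0.0597, 0.0945 and 0.855). Leaving out each mouse gave 0 to 2 members called. Called genes numbered 1999 with the name form, 0 with either slope or in either name form alone, and 2984 without the sex term, and fell from 5144 to 3005, 3332, 3121, 3263 and 2289 without mice 98, 71, 88, 81 and 90.

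Directions reversed as follows, none of them past the threshold. With the length slope the log2 fold change was 0.017 for Srsf1, 0.13 for Srsf3, 0.055 for Srsf7, 0.082 for Srsf9 and 0.11 for Srsf10, and with the GC slope 0.029, 0.096, 0.041, 0.066 and 0.12. In the less common name form alone it was 0.056 for Srsf1, 0.034 for Srsf2, 0.10 for Srsf3, 0.060 for Srsf5, 0.15 for Srsf6, 0.21 for Srsf10 and 0.26 for Srsf11. Mouse 98 was the only HsTX1[R14A] female of that form. Srsf9 was at 0.021 with the name form as covariate and 0.056 in the more common form alone. In females with the length slope Srsf4 was at -0.024 and Srsf5 at -0.093. Across fits leaving out each mouse, Srsf9 ran from -0.055 to 0.035, and in females Srsf5 ran from -0.21 to 0.12 and Srsf6 from -0.20 to 0.041. The count of members following the length slope went from 4 to 1 without the 2 farthest mice. The cause of these changes was not tested. No paired analysis was possible because every mouse number occurs once.

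Counts for sex, for the treatment by sex difference and within each sex stayed at 0 members in every alternative run. With 3 HsTX1[R14A] females and 6 mice of the less common name form, the standard errors in those subsets exceed most of the members' differences.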
